A study of Mus musculus with 46 samples.

Results

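The immediate early transcription factor genes described here were *Fos*, *Fosb*, *Jun*, *Junb*, *Jund*, *Egr1*, *Egr2*, *Egr3*, *Ier2* and *Ier5*. They were picked out by symbol, in a choice made with earlier results of these data known. All 10 were listed in the SVZ table (of 15695 genes) and in the GLOBAL table (of 19930 genes), and 9 of them, all but *Egr3*, in the WM and LPS table (of 15285 genes). Every listed member had an FPKM, the reads of a gene scaled to its length and to the depth of the library, of at least 1 in at least 3 libraries and was therefore tested. The mRNA of 46 libraries from male C57BL/6 mice was measured in 3 experiments that all used PLX3397, an inhibitor of the receptor CSF1R on which microglia depend, given in chow at 600 ppm. The SVZ experiment used tissue of the subventricular zone of mice to which the methods' general age of 1.5 months applies, without saying whether at the start. It held 5 untreated controls, 5 mice after 14 days of PLX3397 (14 day PLX3397) and 5 mice 5 days after the end of the same treatment (5 day recovery). The WM and LPS experiment used CD11b+CD45int cells sorted from whole hemispheres of mice that were 2 months old at the start. WM repopulating cells came from mice given PLX3397 for 14 days followed by 28 days on control chow, and control microglia came from mice that had received no inhibitor. Cells of both kinds were taken without lipopolysaccharide (LPS, 0 hr) or 6 hr and 24 hr after an intraperitoneal injection of 0.33 mg/kg LPS, with 3, 5 and 4 libraries of control microglia and 4 libraries of WM repopulating cells at each time. The GLOBAL experiment used cells sorted in the same way from 4 controls and from 3 mice given PLX3397 for 7 days followed by 28 days of recovery (GLOBAL repopulation). These mice were also 2 months old at the start.

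Immediate early genes are transcribed within minutes of a stimulus, from factors already present in the cell and without new protein synthesis. Proteins of the Fos family (*Fos*, *Fosb*) pair with proteins of the Jun family (*Jun*, *Junb*, *Jund*) to form the AP-1 transcription factor, and Jun proteins also pair with each other. *Egr1*, *Egr2* and *Egr3* encode zinc finger factors that bind GC-rich sites, while *Ier2* and *Ier5* encode smaller nuclear regulators of the same early wave. In microglia and macrophages these genes respond to growth factors and inflammatory ligands, and they are also known to respond to the dissociation of tissue into single cells. The time from death to lysis of the sorted cells was not given in the sources used here.

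In the GENCODE vM21 annotation of GRCm38, *Fos* (Entrez gene 14281) spans chr12:85473890-85477273 on the plus strand, *Fosb* (14282) chr7:19302696-19310051 on the minus strand, *Jun* (16476) chr4:95049034-95052222 on the minus strand, and *Junb* (16477) chr8:84974484-84978718 on the minus strand. *Jund* (16478) spans chr8:70698949-70700616 on the plus strand, *Egr2* (13654) chr10:67535475-67542188 on the plus strand, *Egr3* (13655) chr14:70077203-70082614 on the plus strand, *Ier2* (15936) chr8:84661331-84662852 on the minus strand and *Ier5* (15939) chr1:155096361-155099636 on the minus strand. *Egr1* carries the Entrez gene number 13653. *Junb*, *Jund* and *Ier2* thus lie on the same chromosome. Promoters from RefSeq on GRCm38.p6 were at hand for 7 of the 10 members. TGACG, the core of a cyclic AMP response element, stood on either strand in the 250 bases before a start site of 4 of the 7 (*Fos*, *Fosb*, *Junb* and *Egr2*), against 19.8% of 27025 genes with such a window at any start site. GCGNGGGCG, the site bound by EGR proteins, stood on either strand in 1 of the 7 (*Fosb*, 5.33% of genes), and the CArG box bound by serum response factor in 1 (*Egr2*, 1.62% of genes). The AP-1 site TGANTCA (7.82% of genes) and the full element TGACGTCA (1.77% of genes), which holds TGACG, stood in none of the 7. A match is a run of letters and no measurement of binding. The AP-1 genes *Fos*, *Fosb* and *Junb* held TGACG and were called lower at 6 hr in WM repopulating cells. *Jun* and *Jund* were called lower there too and held no TGACG, and *Egr2*, which held it, was not called. Shown here, 5' to 3', are the 250 bases before the start of *Fos* (chr12:85473640-85473889, plus strand), *Fosb* (chr7:19310046-19310295, minus strand) and *Junb* (chr8:84978749-84978998, minus strand), with capitals on TGACG and on GCGNGGGCG.
Fos: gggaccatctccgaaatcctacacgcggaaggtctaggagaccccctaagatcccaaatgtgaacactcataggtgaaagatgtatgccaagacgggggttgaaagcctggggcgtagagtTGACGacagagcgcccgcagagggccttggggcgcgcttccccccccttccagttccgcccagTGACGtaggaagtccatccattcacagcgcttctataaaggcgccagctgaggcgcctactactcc
Fosb: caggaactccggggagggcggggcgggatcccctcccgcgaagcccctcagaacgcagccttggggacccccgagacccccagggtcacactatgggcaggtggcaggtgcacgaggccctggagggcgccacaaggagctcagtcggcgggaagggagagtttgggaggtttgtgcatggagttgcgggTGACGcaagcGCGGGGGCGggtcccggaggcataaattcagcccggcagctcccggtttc
Junb: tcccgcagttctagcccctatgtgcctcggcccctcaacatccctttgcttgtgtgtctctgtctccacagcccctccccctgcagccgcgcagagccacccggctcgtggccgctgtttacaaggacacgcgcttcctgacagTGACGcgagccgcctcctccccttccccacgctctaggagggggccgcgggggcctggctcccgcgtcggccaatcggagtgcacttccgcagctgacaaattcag

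These windows hold 58.4% G and C bases in *Fos*, 68.8% in *Fosb* and 66.4% in *Junb*. TGACG begins 129 and 66 bases before the start of *Fos*, 60 bases before that of *Fosb* and 106 bases before that of *Junb*, and in *Fosb* the EGR site follows it at 50 bases before the start.

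In sorted cells *Fos*, *Jun*, *Egr1*, *Junb* and *Ier2* were among the most abundant mRNAs per length, and in SVZ tissue no member ranked above 449th. The listed members took 1.35 to 1.66% of the summed FPKM in control microglia at 0 hr, 1.85 to 2.19% in WM repopulating cells at 0 hr and 1.37 to 2.53% in GLOBAL controls, but 0.0446 to 0.108% in SVZ controls. The 3 tables were normalized separately, so these shares are set side by side and were not tested. In control microglia at 0 hr *Fos* (2707 FPKM ± 102, SD, n = 3) ranked 20th of all genes listed, *Jun* (1686 ± 215) 31st, *Egr1* (1138 ± 222) 46th, *Junb* (819 ± 204) 67th and *Ier2* (574 ± 37.3) 94th. They were followed by *Jund* (151 ± 16.3), *Fosb* (113 ± 16.1), *Ier5* (95.8 ± 11), which ranked 746th, and *Egr2* (14.2 ± 4.79 FPKM), which ranked 4603rd. Of the neighbours in this order, the ranges of *Egr1* and *Junb* and those of *Fosb* and *Ier5* overlapped, and the other neighbours were apart in every library. In WM repopulating cells at 0 hr *Fos* (3605 ± 740, n = 4) ranked 13th, and in GLOBAL controls *Egr1* (2129 ± 795, n = 4) was the most abundant member and ranked 20th. In SVZ controls *Egr1* (148 FPKM ± 55.4, n = 5) ranked 449th, *Junb* (62.1 ± 25.2) 1340th and *Fosb*, the lowest member, 2.06 ± 0.685 FPKM, and every member overlapped the next in the order.

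The deposited FPKM values came in steps, which were taken to stand for 1 read each. Depths recovered in this way were 4570000 to 10600000 reads for the SVZ libraries, 5240000 to 10400000 reads for the WM and LPS libraries and 2210000 to 5370000 reads for the GLOBAL libraries. *Fos* rested on 2994 to 73191 reads in each WM and LPS library, *Fosb* on 17 to 91 reads in each SVZ library and *Egr3* on only 2 to 18 reads in each GLOBAL library. In 7 SVZ libraries (control replicates 1 to 4, 14 day PLX3397 replicate 5 and recovery replicates 1 and 5) 99.7 to 99.8% of the numbers first recovered were even. Their depths were halved on the assumption that 2 steps stood for 1 read there, which was not tested. After this halving they were the shallowest, at 4570000 to 7890000 reads, and the other 8 held 8240000 to 10600000. They are called the shallower libraries below. A pair of control libraries stood apart from their groups over all genes. The 6 hr control replicate 2 had a median correlation of 0.939 with its group, against 0.965 to 0.974 for the others, and a summed FPKM of 609203, the largest of the series, and the 24 hr control replicate 4 had 0.949, against 0.981 to 0.984. Counts of members called that rest on these 2 libraries are given with and without them below. Microglial markers (*P2ry12*, *Tmem119*, *Cx3cr1*, *Csf1r*, *Aif1*, *Siglech* and *Sall1*) summed to 10800 to 12800 FPKM in control microglia at 0 hr and neutrophil markers (5 genes) to 1540 to 7220 FPKM, and in WM repopulating cells at 0 hr the neutrophil markers summed to 2310 to 8800 FPKM, so the cells carried the microglial markers of their label beside those of neutrophils. The methods of the study count replicates as mice, whereas the labels only number them, and p-values measure the spread between these libraries.

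The first comparison in sorted cells asked how WM repopulating cells differed from control microglia before LPS. *Ier5* was the only member called, 2.46-fold higher in WM repopulating cells. Its FPKM was 86.9, 92.5 and 108 in control microglia and 278, 227, 226 and 218 in WM repopulating cells, with no overlap. The log2 fold change, here and below on the log2(FPKM + 1) scale, was 1.30 (adjusted p = 0.000747, SE 0.19, limma). Higher calls made up 0.717% of the 12684 genes tested. *Junb* measured 662, 745 and 1049 FPKM in control microglia and 1730, 1404, 1389 and 1448 in WM repopulating cells, which also kept the groups apart, but its log2 fold change of 0.89 (adjusted p = 0.389, SE 0.41) was not called. *Jun*, *Jund* and *Egr1* were likewise higher in all 4 WM libraries than in all 3 control libraries without passing the test. With *Ier5* and *Junb*, 5 of 9 members lay above the control range, as did 7.61% of all genes tested. *Fos*, *Fosb*, *Egr2* and *Ier2* overlapped between the groups. The median log2 fold change was 0.39 over the 9 members and 0.01 over all genes tested. With the 2 control libraries that stood apart left out of the fit, the spread shared by all groups was smaller and *Junb* passed as well (0.89, adjusted p = 0.00157, SE 0.14), for 2 members called higher, as were 1.81% of the 12606 genes tested in that fit. Heat shock chaperones, which also respond to handling, summed to 1520 to 2010 FPKM in control microglia and 2570 to 3040 FPKM in WM repopulating cells, and 1 of 12, the co-chaperone *Bag3*, was called (log2 fold change 0.96, adjusted p = 0.0212). Choroid plexus markers summed to 73.9 to 217 and to 280 to 715 FPKM. Lymphocyte markers summed to 0.975 to 2.87 and to 6.41 to 11.3 FPKM, with *Cd3d* of T cells called higher (1.74, adjusted p = 0.0174), and endothelial markers to 8.16 to 13.6 and to 2.82 to 6.47 FPKM, with *Pecam1* called lower (-1.54, adjusted p = 0.0259). The part of any of these in the members' differences was not tested. Here and in the other comparisons, fewer cells of a type and less RNA per cell cannot be told apart.

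**Figure D1:**
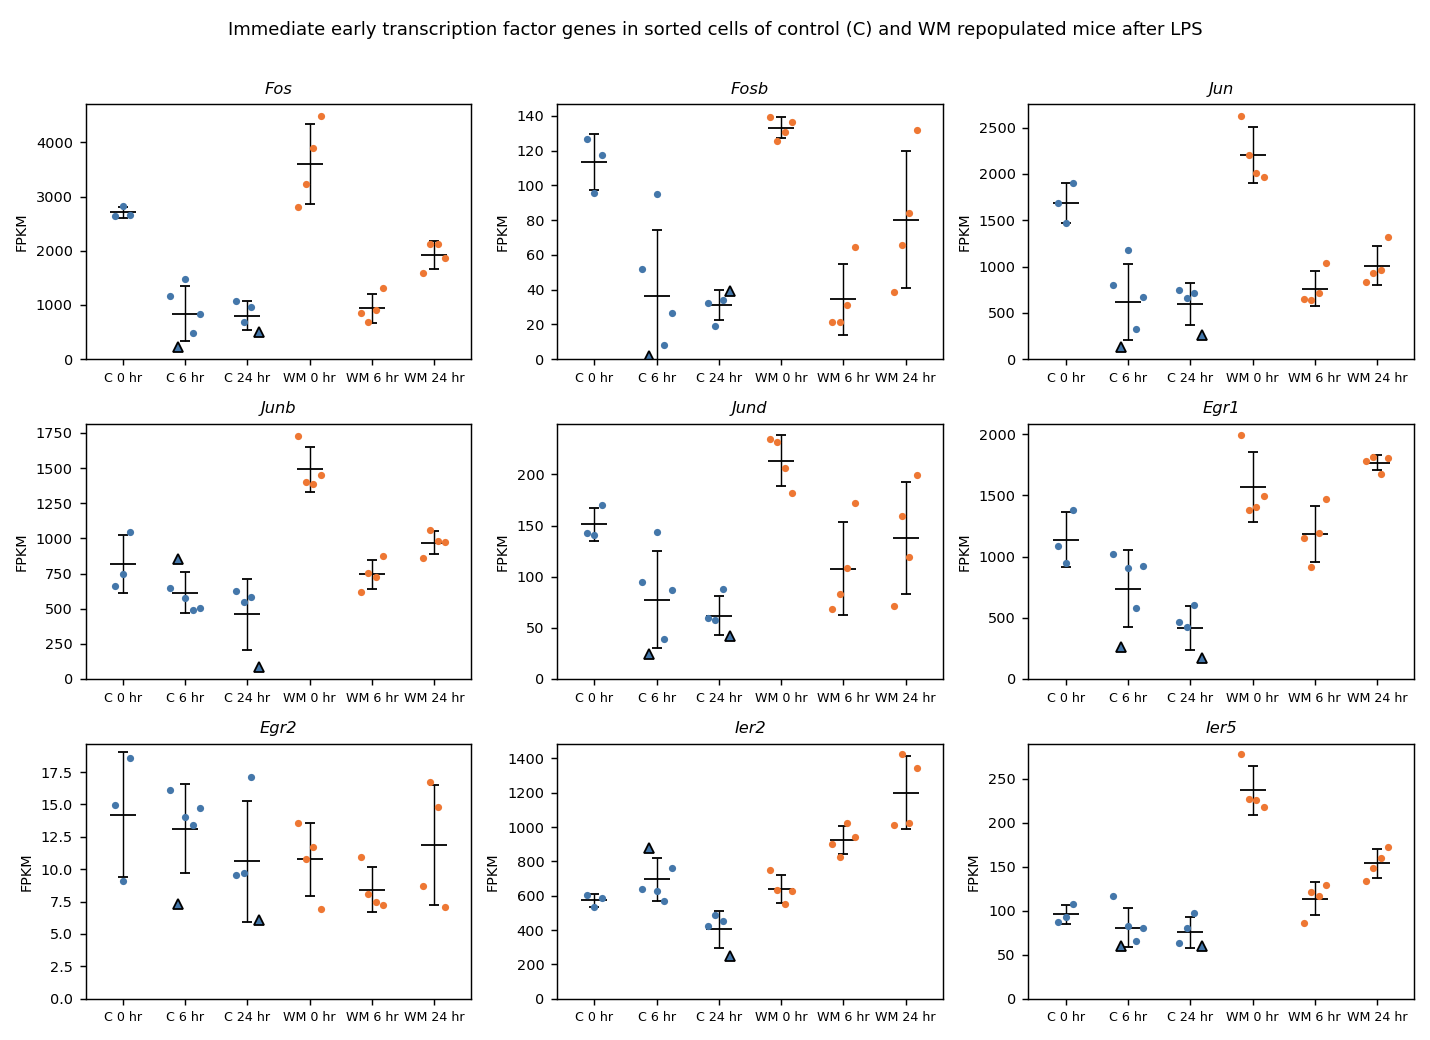
FPKM of the 9 listed members (vertical axes, linear, from 0) in each library of control microglia (C, blue) and WM repopulating cells (WM, orange) at 0, 6 and 24 hr, with horizontal bars for means and error bars for 1 SD, which end at the axis where they would pass below 0. Black-edged triangles are the 6 hr control replicate 2 and the 24 hr control replicate 4. *Fos* in control microglia lies at 2643 to 2824 FPKM at 0 hr and at 224 to 1473 FPKM at 6 hr, and *Ier2* in WM repopulating cells rises to 1015 to 1425 FPKM at 24 hr.

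LPS engages Toll-like receptor 4 and was given to compare the responses of the sorted cells. At 6 hr, control microglia held less mRNA of *Fos*, *Fosb*, *Jun* and *Jund* than at 0 hr. *Fos* was 2643, 2824 and 2654 FPKM at 0 hr and 1174, 224, 1473, 482 and 831 FPKM at 6 hr, so that every library at 6 hr lay below every library at 0 hr. It fell by 1.97 on the log2 scale (adjusted p = 0.000245, SE 0.39). *Fosb* measured 127, 95.4 and 117 FPKM at 0 hr and 51.7, 1.54, 95.0, 8.12 and 26.3 FPKM at 6 hr, a wide range that still stayed under the lowest value at 0 hr, and fell by 2.5 (adjusted p = 0.00555, SE 0.70). *Jun* was 1689, 1470 and 1900 FPKM at 0 hr and 805, 129, 1177, 331 and 667 FPKM at 6 hr, again without overlap, and fell by 1.79 (adjusted p = 0.00249, SE 0.45). *Jund*, the *Jun* gene usually least dependent on stimulation, fell by 1.21 (adjusted p = 0.0194, SE 0.41) but overlapped, with 140.5 to 170 FPKM at 0 hr and up to 144 FPKM at 6 hr. These 4 of 9 members were called lower, where 21.1% of all genes tested were, and 3 of 9 lay wholly below the 0 hr range, as did 18.6% of all genes tested. The *Jund* call was lost without 0 hr replicate 3, 6 hr replicate 2 or 6 hr replicate 4 (adjusted p = 0.0538 to 0.0689), and the *Jund* (0.0726) and *Fosb* (0.063) calls were lost when these groups alone were fitted. *Junb* (log2 fold change -0.42, adjusted p = 0.418), *Egr1* (-0.76, 0.0834), *Ier2* (0.26, 0.272) and *Ier5* (-0.28, 0.245) did not pass. In the 6 hr control replicate 2, 7 members were at their lowest of the group, whereas *Junb* (853 FPKM) and *Ier2* (877 FPKM) were at their highest. Apart from this library *Junb* also lay wholly below its 0 hr range, at 491 to 644 FPKM against 662 to 1049 FPKM. Without the 2 libraries that stood apart, 5 members were called, the same 4 and *Junb* (-0.54, adjusted p = 0.00407, SE 0.14), where 21.5% of the genes tested in that fit were lower. *Fos* then fell by 1.57 and *Fosb* fell by 1.76. Over the members the median log2 fold change was -0.76, and over all genes tested 0.01.

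At 24 hr control microglia were still below their 0 hr level for most members, and the calls now included *Egr1*, *Junb* and *Ier2*. *Fos* was 1067, 686, 969 and 500 FPKM and fell by 1.81 relative to 0 hr (adjusted p = 0.00239, SE 0.41), and *Jun* (750, 662, 710 and 257 FPKM) fell by 1.61 (adjusted p = 0.0164, SE 0.47). All 4 libraries were below the 0 hr range for both genes. *Egr1* had 1085, 947 and 1382 FPKM at 0 hr and 464, 427, 601 and 175 FPKM at 24 hr, and fell by 1.56 (adjusted p = 0.00335, SE 0.37). *Jund* (-1.32, adjusted p = 0.029), *Junb* (-1.15, 0.0493) and *Ier2* (-0.55, 0.0441) were lower as well, and *Fosb* (-1.87, 0.0712) and *Ier5* (-0.36, 0.197) did not pass. The 6 of 9 members called lower stood beside 9.23% of all genes tested. Wholly below the 0 hr range lay 7 of 9 members and 13.7% of all genes tested. Replicate 4, a library that stood apart, was the lowest of its group for 8 of the 9 members, and its *Junb* value of 85.5 FPKM was far below the other 3 libraries (545 to 624 FPKM). Without it the log2 fold change of *Junb* was -0.46. Leaving out this library alone, or 0 hr replicate 3, left 2 members called lower, and leaving out 0 hr replicate 1 or 2 left 3. Under 13 alternatives of the analysis planned for this comparison *Fos* and *Egr1* were called in 13, *Jun* in 11, *Jund* in 7 and *Junb* and *Ier2* in 3. With both outlying control libraries left out 6 were called, among which *Fosb* (-1.99, adjusted p = 0.0125) replaced *Ier2* (-0.33, adjusted p = 0.1), and 9.73% of the genes tested in that fit were lower. Over the 9 members the median was -1.32, against 0.01 over all genes tested.

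In WM repopulating cells the *Fos* and *Jun* genes fell at 6 hr and *Ier2* rose. *Fos* went from 2810, 3225, 3897 and 4488 FPKM at 0 hr to 859, 679, 901 and 1318 FPKM at 6 hr, with no overlap, and fell by 1.96 (adjusted p = 0.000212, SE 0.38). *Ier5*, known for its part in the heat shock response, went from 218 to 278 FPKM down to 86.4, 121, 117 and 129 FPKM, and fell by 1.07 (adjusted p = 4.89e-05, SE 0.18). *Ier2* had 749, 636, 552 and 629 FPKM at 0 hr and 902, 825, 1021 and 941 FPKM at 6 hr, and rose by 0.53 (adjusted p = 0.0218, SE 0.18). It was the only member called higher at 6 hr in either kind of cell. *Fosb* (-2.07, adjusted p = 0.0177), *Jun* (-1.55, 0.00651), *Junb* (-1.01, 0.0395) and *Jund* (-1.06, 0.0363) were lower, and *Egr1* did not pass (-0.41, 0.356). That gave 6 of 9 members lower and 1 higher, where 19.5% of all genes tested were lower and 19.3% higher. Wholly below the 0 hr range lay 6 of 9 members and 20.5% of all genes tested. Under 14 alternatives *Fos*, *Jun* and *Ier5* were called in 14, *Fosb* in 13, *Ier2* in 12, *Jund* in 8 and *Junb* in 5, and 4 members were called without 0 hr replicate 3, 6 hr replicate 2 or 6 hr replicate 3. The members had a median log2 fold change of -1.06, against 0 over all genes tested.

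At 24 hr 2 members were called in WM repopulating cells, *Ier2* higher and *Ier5* lower than at 0 hr. *Ier2* reached 1015, 1425, 1022 and 1342 FPKM, all above the 0 hr range, an increase of 0.90 (adjusted p = 0.000914, SE 0.18). *Ier5* measured 134, 149, 160 and 173 FPKM, all below the 0 hr range, and was lower by a log2 fold change of -0.62 (adjusted p = 0.0171, SE 0.18). The *Ier5* call was lost without replicate 1 of either time (adjusted p = 0.0562 and 0.0599). The call of 1 member higher stood beside 10.5% of all genes tested, and that of 1 member lower beside 8.29%. *Fos* was 1582, 2120, 2117 and 1859 FPKM, below every 0 hr library but not called (-0.90, adjusted p = 0.101). *Jun* (-1.14, 0.0715) and *Junb* (-0.62, 0.28) were also apart from 0 hr without passing, so that 4 of 9 members lay wholly below the 0 hr range, as did 12% of all genes tested, and *Egr1* was not called (0.19, 0.751), with 1778, 1813, 1677 and 1803 FPKM. Without the 2 outlying control libraries, which belong to neither group but feed the shared spread, 5 members were called: *Fos*, *Jun*, *Junb* and *Ier5* lower and *Ier2* higher. In that fit 11.8% of the genes tested were lower and 13.9% higher. Medians of the log2 fold change were -0.62 over the members and 0.02 over all genes tested.

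The same libraries, set against each other at each time, gave more calls at 24 hr (4 members) than at 0 hr (1) or 6 hr (0). At 6 hr no member of 9 was called by limma, 3 had an unadjusted p under 0.05 (*Egr1*, *Ier2* and *Ier5*, against 9.18% of all genes tested), all 9 overlapped, and 0.323% of all genes tested were called in either direction. Without the 2 outlying control libraries 5 had an unadjusted p under 0.05 and again no member was called, as were 0.468% of genes. *Ier2* (567.5 to 762 FPKM in control microglia, 824.5 to 1021 in WM repopulating cells) and *Egr2* (13.44 to 16.12 and 7.227 to 10.94) then did not overlap. The shares of all genes for this unadjusted p and this overlap were not computed. At 24 hr 4 of 9 members were higher in WM repopulating cells, where 1.68% of all genes tested were. *Egr1* was 464, 427, 601 and 175 FPKM in control microglia and 1677 to 1813 FPKM in WM repopulating cells, a log2 fold change of 2.21 (adjusted p = 0.000513, SE 0.34). *Ier2* was 424, 489, 454 and 250 FPKM in control microglia and 1015 to 1425 FPKM in WM repopulating cells, 3.03-fold higher (1.60, adjusted p = 1.92e-05, SE 0.18). *Ier5* was 63.7, 80.7, 97.7 and 59.9 FPKM in control microglia and 134 to 173 FPKM in WM repopulating cells (1.04, adjusted p = 0.00147, SE 0.18). None of these 3 overlapped between the groups. *Junb* was 624, 545, 584 and 85.5 FPKM in control microglia and 863, 1059, 984 and 972 FPKM in WM repopulating cells, with a log2 fold change of 1.42 (adjusted p = 0.0356, SE 0.38), or of 0.73 (adjusted p = 0.00519, SE 0.14) without the outlying control libraries. This call was lost without any 1 of the 4 WM libraries at 24 hr (adjusted p = 0.0537 to 0.0952), whereas *Egr1*, *Ier2* and *Ier5* were called in 14 of 14 alternatives. *Fos* just missed the threshold (1.30, adjusted p = 0.0504, SE 0.38) and *Jun* (0.86, 0.309) did not pass, although both kept the groups apart, so that 6 of 9 members lay above the control range, as did 5.76% of all genes tested, whereas *Fosb* (1.25, 0.345) and *Jund* (1.09, 0.126) overlapped. Without the outlying libraries *Fos* was called too (1.10, adjusted p = 0.0224, SE 0.27), for 5 members called higher, as were 2.45% of the genes tested in that fit. The median log2 fold change was 0.51 at 6 hr and 1.25 at 24 hr over the members, and 0 and 0.02 over all genes tested.

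Whether the LPS response itself differed between the kinds of cell was tested as the change in WM repopulating cells minus the change in control microglia. At 24 hr the responses of *Ier2* differed by 1.44 on the log2 scale (adjusted p = 0.0227, SE 0.26), with a fall of 0.55 in control microglia and a rise of 0.90 in WM repopulating cells. It was the only member called, and 0.0158% of all genes tested were higher in this test. The call was lost with quantile normalization (adjusted p = 0.0667), with the replicate number as a block (0.0568) or with the 4 groups concerned fitted alone (0.0548). It was also lost without control 0 hr replicate 1 or 3, WM 0 hr replicate 2 or WM 24 hr replicate 2 or 4 (0.0501 to 0.0607), and over all alternatives the difference lay between 1.23 and 1.55. *Egr1* differed by 1.75 without passing (adjusted p = 0.209, SE 0.50), and passed when the 2 outlying control libraries were left out (1.38, adjusted p = 0.0243, SE 0.26), beside *Ier2* (1.23, adjusted p = 0.00683, SE 0.19), where 0.19% of the genes tested in that fit were higher. At 6 hr no member was called by limma, and 1, *Ier5*, had an unadjusted p under 0.05, as had 7.2% of all genes tested (difference -0.79, adjusted p = 0.567, SE 0.26). Calls in either direction made up 0.0237% of all genes tested at 6 hr. These comparisons share the same 0 hr libraries, so each has been given by its own values.

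**Figure D2:**
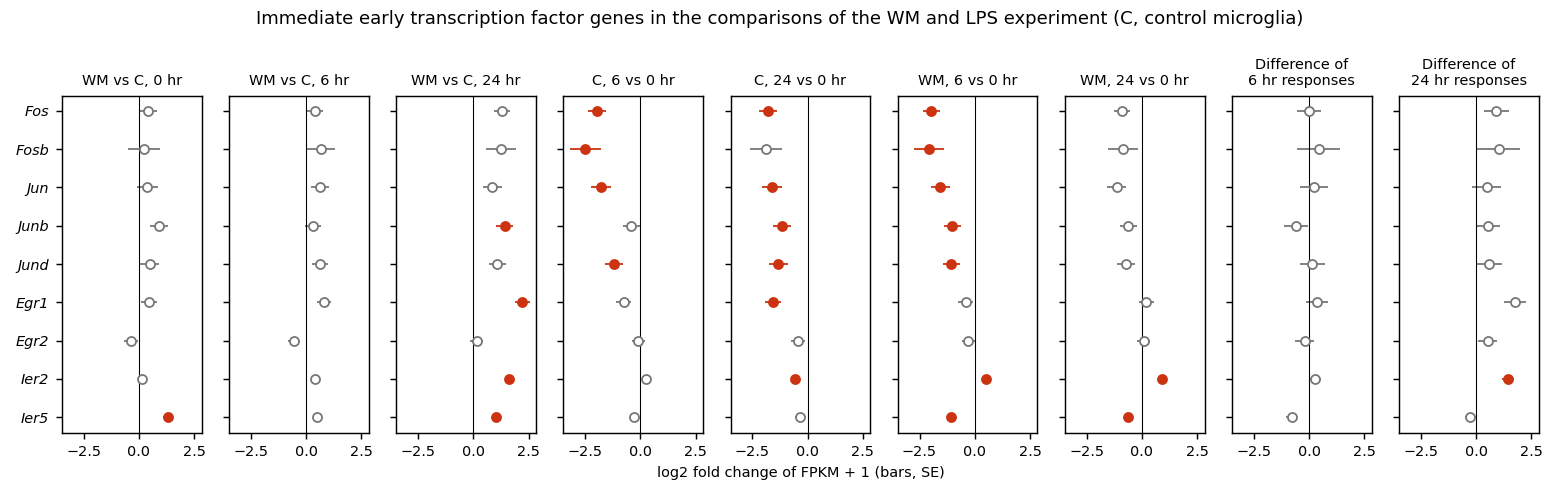
Log2 fold changes of the 9 members (horizontal axes, scale of log2(FPKM + 1)) in each comparison of WM repopulating cells (WM) and control microglia (C) and in the 2 tests of a difference in response, with bars for the SE. Filled red points have an adjusted p under 0.05 (limma) and open grey points do not. *Ier2* lies at 1.60 between the cells at 24 hr and is the only filled point in the last panel, at 1.44.

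Other gene groups were measured in the same libraries. Microglial markers summed to 3200 to 4610 FPKM in control microglia and 3860 to 4090 FPKM in WM repopulating cells at 6 hr, below the 10800 to 13700 FPKM of both at 0 hr, and were at 3770 to 6980 and 5740 to 7220 FPKM at 24 hr. Monocyte markers summed to 74 to 207 FPKM in control microglia at 0 hr and 897 to 2160 FPKM at 6 hr, with 3 of 4 called higher, and to 84.6 to 214 FPKM and 1080 to 2830 FPKM in WM repopulating cells, with 4 of 4 called higher. Neutrophil markers ranged widely, from 792 to 4960 FPKM in control microglia and from 380 to 7960 FPKM in WM repopulating cells at 6 hr. Against 0 hr, 1 of 5 was called lower in control microglia (*Ly6g*, -2.60) and 4 of 5 in WM repopulating cells (*Ly6g*, -3.02, *Camp*, -2.49, *Retnlg*, -2.27, and *S100a9*, -2.22). At 24 hr they summed to 5740 to 14600 FPKM in control microglia and 2770 to 5950 FPKM in WM repopulating cells, and 0 of 5 were called between the cells. Choroid plexus markers went from 280 to 715 FPKM at 0 hr to 10.5 to 32 FPKM at 24 hr in WM repopulating cells, where 3 of 4 were called lower, among them *Ttr* (-4.22, adjusted p = 1.13e-05), and were at 35.3 to 51.8 FPKM in control microglia at 24 hr. At 6 hr they were at 95.4 to 1360 FPKM in control microglia and 157 to 599 FPKM in WM repopulating cells, where *Kl* was higher than at 0 hr (0.65). Neuron and astrocyte markers higher at 6 hr were *Tubb3* (0.93) and *Gja1* (1.02) in control microglia and *Snap25* (0.91) and *Aldoc* (1.30) in WM repopulating cells. Markers of border-associated macrophages went both ways at 6 hr. In control microglia 3 of 4 tested were lower (*Pf4*, -2.60, *Mrc1*, -1.33, and *Lyve1*, -0.93) and *F13a1* was higher (1.61). In WM repopulating cells *Pf4* (-2.25) and *Mrc1* (-0.93) were lower and *F13a1* (1.17) higher, and at 24 hr *Mrc1* was lower in both (-1.23 and -1.47). *Cd3d* was lower than at 0 hr in WM repopulating cells at 6 hr (-1.45) and 24 hr (-1.92). *Cspg4*, the 1 marker of oligodendrocyte precursors tested, was higher in WM repopulating cells than in control microglia at 6 hr (1.75, adjusted p = 8.17e-06), and its 6 hr response differed between them (1.54, adjusted p = 0.0415), at sums for these markers of 1.64 to 4.04 FPKM and 0.0567 to 0.508 FPKM. Between the cells at 24 hr single markers of other cell types were called, lower in WM repopulating cells for *Mrc1* of border-associated macrophages (-1.19, adjusted p = 0.0153), *Pecam1* of endothelium (-1.56, 0.00603) and *Aldoc* of astrocytes (-1.12, 0.0368), and higher for *Cspg4* of oligodendrocyte precursors (0.81, 0.0164). The 14 genes of the LPS response summed to 4150 to 4760 FPKM in control microglia at 0 hr and 11900 to 68400 FPKM at 6 hr, the highest being replicate 2. They were at 8920 to 10900 FPKM in control microglia at 24 hr, below every WM library of that time. In WM repopulating cells they summed to 4250 to 4650, 11700 to 19400 and 11200 to 16300 FPKM at 0, 6 and 24 hr. Of these 14, 10 rose in control microglia and 8 in WM repopulating cells at 6 hr, and 5 and 10 at 24 hr. They were led at 6 hr by the acute phase gene *Saa3* (log2 fold changes of 12.12 and 11.77), the chemokine gene *Cxcl10* (5.24 and 3.58) and the cytokine gene *Il1b* (4.95 and 3.61). At 24 hr 1 of the 14, *Nfkbiz*, a regulator of NF-kB targets, was higher in WM repopulating cells than in control microglia (1.14, adjusted p = 0.0057). The part of a change in cell makeup in the members' values was not tested.

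Heat shock chaperones were measured beside the members. At 6 hr 4 of 12 were lower and 1 higher in control microglia (median log2 fold change -0.18, with 21.1% of all genes lower), and 9 lower and 1 higher in WM repopulating cells (median -1.03, with 19.5% of all genes lower), where the inducible chaperone gene *Hspa1a* changed by -3.62 and -5.53 and *Dnajb1*, which encodes its co-chaperone, by -1.91 and -2.47 on the log2 scale. At 24 hr 6 were higher and none lower in control microglia, among them *Hsph1* (1.55) and *Hspd1* (1.04), while the *Fos* and *Jun* calls there were lower. In WM repopulating cells at 24 hr none was higher and 2 were lower, *Hspb1* (-2.30) and *Dnajb1* (-0.83). Of all genes tested at 24 hr, 9.23% were lower in control microglia, and 10.5% higher and 8.29% lower in WM repopulating cells. Between the cells at 24 hr *Hspe1* (-0.84, adjusted p = 0.0473) and *Hspd1* (-0.51, adjusted p = 0.0164) were lower in WM repopulating cells, opposite in sign to the 4 members called. *Hspd1*, a mitochondrial chaperone gene, also differed in its 24 hr response (-0.93, adjusted p = 0.0322). Summed heat shock FPKM ran at 1090 to 2460 and 2610 to 3420 in control microglia and at 1040 to 1380 and 1070 to 3820 in WM repopulating cells at 6 and 24 hr. The part of handling in the members' values was not tested.

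The partners and relatives of the members moved in both directions. Of 13 AP-1 partners, 6 were higher and 3 lower at 6 hr in control microglia, and 5 higher and 3 lower in WM repopulating cells. Over all genes tested 21.1% were lower in control microglia, and 19.3% higher and 19.5% lower in WM repopulating cells. In the fit without the 2 outlying control libraries 22.2% were higher in control microglia. *Batf*, whose protein pairs with Jun proteins in immune cells, rose by 1.92 and 1.49, and *Batf2* by 1.51 and 1.68, whereas the stress-induced *Atf3* changed by -1.82 and -1.40. *Fosl2*, a Fos family gene outside the members, rose by 1.40 at 6 hr in control microglia, opposite in sign to *Fos* and *Fosb*, and by 0.88 at 24 hr in control microglia and 1.28 in WM repopulating cells. *Batf3* was lower by 1.44 at 6 hr in WM repopulating cells on the log2 scale (log2 fold change -1.44). At 24 hr 2 were higher and 1 lower in control microglia (*Maff*, 0.94, *Fosl2* and *Maf*, -0.89), and 3 higher and 1 lower in WM repopulating cells (*Maff*, 1.49, *Fosl2*, *Mafg*, 0.82, and *Maf*, -0.79). Over all genes tested 9.23% were lower in control microglia, and 10.5% higher and 8.29% lower in WM repopulating cells. Between the kinds of cell none of the 13 was called at 0 or 6 hr, and the small Maf genes *Mafk* (1.16, adjusted p = 0.00168) and *Mafg* (0.82, 0.00419) were higher in WM repopulating cells at 24 hr. Higher calls made up 1.68% of all genes tested there. *Nab1*, which encodes a corepressor of EGR proteins, rose by 1.29 and 1.11 at 6 hr, 1 of the 2 EGR relatives tested. Of 8 genes for serum response factor, its partners and CREB proteins, *Elk4* was higher at 6 hr in control microglia (0.54), *Crem* higher (0.77) and *Mkl1* (-0.86) and *Mkl2* (-0.59) lower at 6 hr in WM repopulating cells, and *Mkl1* lower there at 24 hr (-0.74). None of the 8 differed between the kinds of cell at any time by this test.

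Other immediate early genes were called in both directions. Of 22 tested, 5 were higher and 6 lower at 6 hr in control microglia, and 4 higher and 9 lower in WM repopulating cells. Of all genes tested, 21.1% were lower at 6 hr in control microglia, and 19.3% higher and 19.5% lower in WM repopulating cells. At 24 hr the counts were 6 higher and 6 lower in control microglia, and 6 higher and 1 lower in WM repopulating cells. Beside them, 9.23% of all genes tested were lower in control microglia, and 10.5% higher and 8.29% lower in WM repopulating cells. Without the 2 outlying control libraries, 22.2% of genes were higher at 6 hr and 13% at 24 hr in control microglia. *Ier3*, a survival gene of the NF-kB response, rose by 1.26 and 1.37 at 6 and 24 hr in control microglia and by 1.84 and 2.56 in WM repopulating cells. *Btg2*, an antiproliferative gene, changed by -1.54 and -1.22 in control microglia and by -1.31 at 6 hr in WM repopulating cells. *Gadd45b* rose by 1.43 at 6 hr in control microglia, where *Klf4* changed by -1.20 at 6 hr and -1.14 at 24 hr and the phosphatase gene *Dusp1* by -1.04 at 24 hr. *Myc* rose by 1.21 and 1.47 in WM repopulating cells, in which *Zfp36* changed by -1.33 at 6 hr and *Tiparp* and *Klf10* rose by 1.16 and 0.94 at 24 hr. Set against control microglia at 24 hr, 7 of the 22 were higher and none lower in WM repopulating cells, where 1.68% of all genes tested were higher. The 7 were led by *Zfp36* (1.47, adjusted p = 0.00203), whose protein destabilizes cytokine mRNA, *Dusp1* (1.40, 0.000542), *Btg2* (1.27, 0.00175) and *Csrnp1* (1.26, 0.0057). The median log2 fold change of the 22 there was 0.41, against 1.25 over the members. At 0 and 6 hr none of the 22 was called.

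The GLOBAL experiment asked the same of cells that repopulated after the shorter treatment. No member of 10 was called by limma, none had an unadjusted p under 0.05, and all 10 overlapped. Of all 16651 genes tested 0% were called, and 1504 (9.03%) had an unadjusted p under 0.05. *Fos* was 1206, 1505, 1290 and 1956 FPKM in the controls and 1709, 1560 and 1848 FPKM after repopulation (log2 fold change 0.22, adjusted p = 0.738, SE 0.19). *Egr1* was 1740, 1712, 1743 and 3321 FPKM in the controls and 2715, 2121 and 2823 FPKM after repopulation (0.31, adjusted p = 0.71, SE 0.25), and *Ier5* was 347, 247, 267 and 806 FPKM and 553, 373 and 505 FPKM (0.35, adjusted p = 0.78, SE 0.35). In each case a single control, replicate 4, lay above all the repopulation libraries while the other 3 controls lay below them. Replicate 4 was the highest control for 10 of 10 members, and the repopulation replicate 2 was the lowest of its group for 9 of 10, all but *Egr3*. Left without control replicate 4, 5 members (*Fos*, *Jun*, *Junb*, *Egr1* and *Ier5*) were higher in every repopulation library than in every control, as were 12.2% of the 16330 genes tested in that fit, and 6 had an unadjusted p under 0.05, as had 14.4% of those genes. No member was called. *Junb* then had a log2 fold change of 0.71 (adjusted p = 0.149, SE 0.16) in place of 0.33 and *Ier5* of 0.73 (adjusted p = 0.171, SE 0.18). The same control library had the lowest sums of the group for neutrophil markers (1730 FPKM, the highest being 19600) and monocyte markers (107 FPKM, the highest being 503). Heat shock chaperones summed to 1570 to 4130 FPKM in the controls, highest in replicate 4, and to 7110 to 8590 FPKM after repopulation, where 0 of 12 were called with a median log2 fold change of 1.03. None of the other lists held a call either. The part of cell makeup or handling in these values was not tested. The median log2 fold change was 0.16 over the members and 0.01 over all genes tested.

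**Figure D3:**
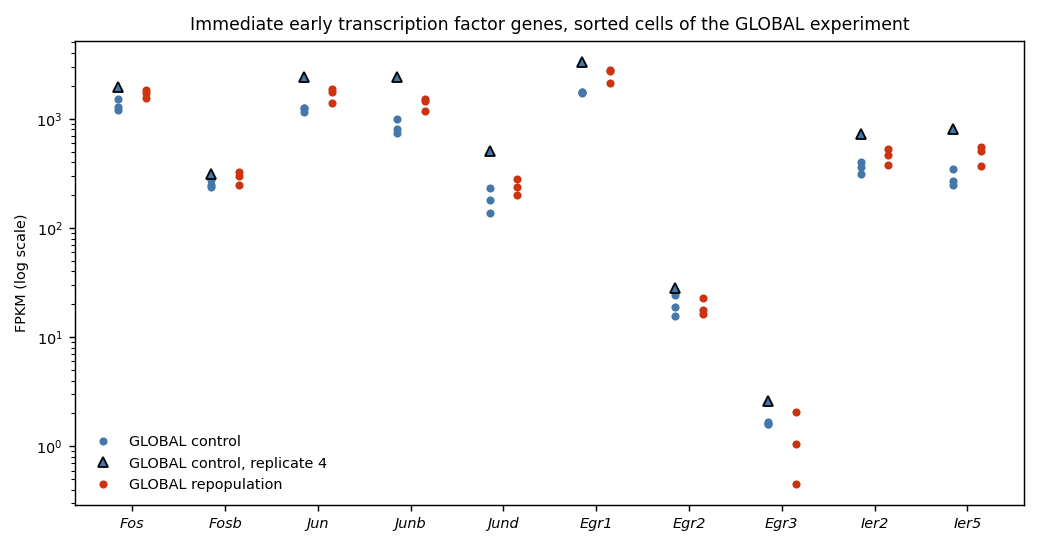
FPKM of the 10 members (vertical axis, log scale) in each library of the GLOBAL experiment, controls in blue and repopulation in red. Black-edged triangles mark control replicate 4, which is the highest control for 10 of 10 members, for example with 3321 FPKM for *Egr1* against 1712 to 1743 FPKM in the other 3 controls.

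In SVZ tissue the question was whether the loss of microglia and the first days of recovery altered the members. None of 10 was called by limma in any of the 3 comparisons, and all 10 overlapped in each. No member had an unadjusted p under 0.05 at 14 day PLX3397 against control, while 2 had at 5 day recovery against control and 2 against 14 day PLX3397. Over all genes tested the shares were 6.12%, 16.6% and 16.5%. Calls in either direction made up 1.26%, 1.27% and 0.325% of the 14151 genes tested. *Fos* measured 9.69, 20.8, 47.2, 26.5 and 36.9 FPKM in controls, 20.8, 12.1, 20.7, 14.05 and 20.3 FPKM after PLX3397 and 24.9, 9.92, 26.6, 17.9 and 26.5 FPKM at recovery, with the controls spanning both other groups. *Fosb*, the lowest member, was 1.26 to 2.61 FPKM in controls, 1.52 to 2.14 after PLX3397 and 1.72, 1.19, 1.76, 0.493 and 0.571 FPKM at recovery, where replicates 4 and 5 lay below every other library. Its log2 fold change at recovery was -0.53 against control (adjusted p = 0.2, SE 0.19) and -0.46 against 14 day PLX3397 (adjusted p = 0.258). *Jun* was the other member with a small unadjusted p at recovery against control (-0.30, adjusted p = 0.292), with 16.9 to 25.1 FPKM in controls and 13.3 to 21.9 FPKM at recovery. *Ier2* was higher at recovery than at 14 day PLX3397 without passing (0.37, adjusted p = 0.284). With a term in the fit for the 7 shallower libraries again 0 members were called in each comparison, and 0, 2 and 2 had an unadjusted p under 0.05. The median log2 fold change of the members was -0.21, -0.30 and -0.05, against 0.01, -0.01 and -0.01 over all genes tested.

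Microglial markers fell in the same tissue, 6 of 7 in each comparison with control (medians -4.08 and -3.26). The fractalkine receptor gene *Cx3cr1*, for example, fell by 4.53 at 14 day PLX3397. The members together summed to 204 to 480 FPKM in controls, 192 to 365 FPKM after PLX3397 and 188 to 365 FPKM at recovery, highest in replicates 5, 3 and 3. Neuron markers (8 genes, among them *Snap25* and *Rbfox3*) were highest in the same 3 libraries, with sums of 3270, 2980 and 2920 FPKM against group medians of 2620, 2610 and 2530 FPKM, and none of the 8 was called. Of the related lists, *Hspb1* was lower after PLX3397 (-0.92, adjusted p = 0.0183) and *Hsph1* higher at recovery than after PLX3397 (0.57, adjusted p = 0.0107), of 11 heat shock chaperones. The LPS response receptor gene *Cd14* was lower in both comparisons with control (-1.78 and -1.21), and none of the 24 other immediate early genes, 5 AP-1 partners, 8 genes around serum response factor or 3 EGR relatives was called. Of 5 astrocyte markers *Gfap* was higher in both comparisons with control (1.11 and 1.39). Of 3 oligodendrocyte precursor markers *Pdgfra* (-1.01) and *Cspg4* (-0.80) were lower after PLX3397 and *Gpr17* (-1.60) at recovery. Erythrocyte genes were higher at recovery than in controls for 3 of 4 (Hba-a1, 1.74, Hba-a2, 1.5, and Hbb-bs, 1.30), with sums of 32.4 to 79.3 FPKM in controls and 91.3 to 336 FPKM at recovery. Control replicate 1, the lowest control for 7 of 10 members, held 21300 FPKM of choroid plexus markers, where the other groups reached at most 43.2 FPKM. The part of any of these in the members' values was not tested.

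**Figure D4:**
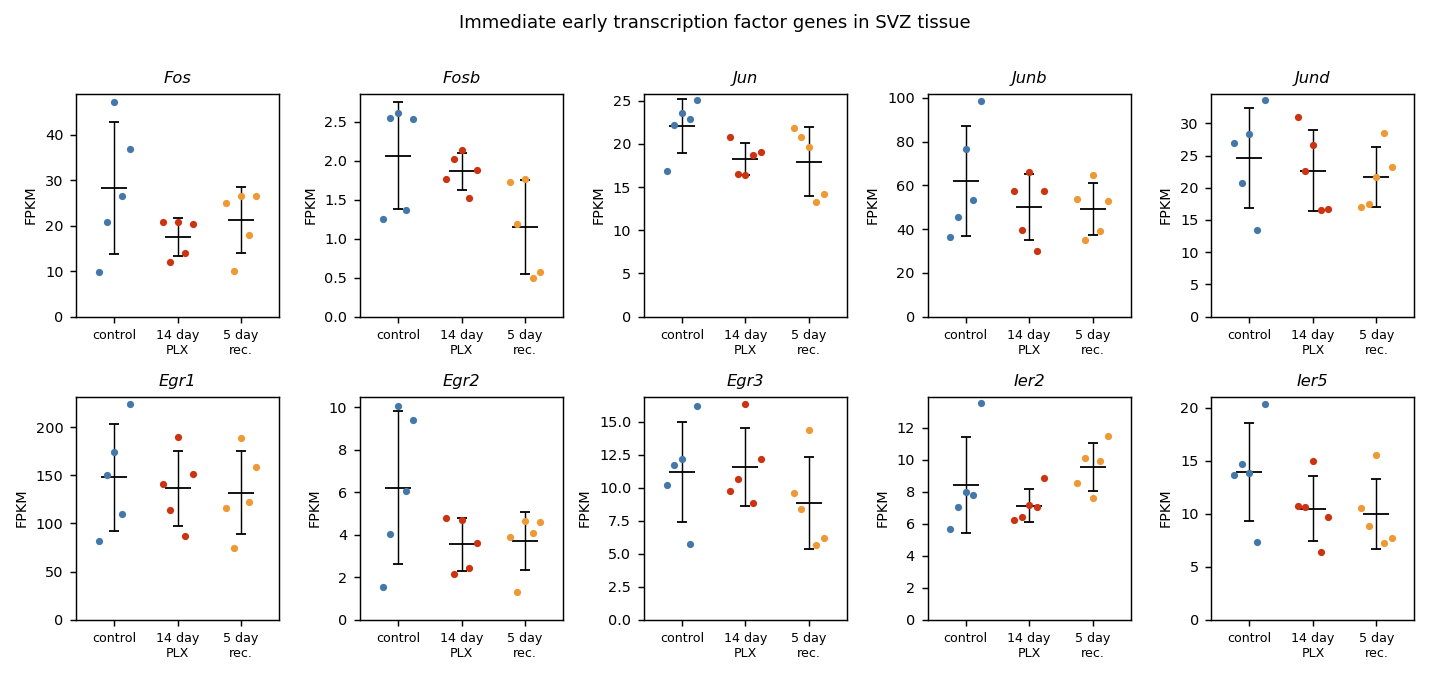
FPKM of the 10 members (vertical axes, linear, from 0) in the 5 libraries of each SVZ group, with horizontal bars for means and error bars for 1 SD. The 3 groups overlap for each member; *Egr1*, for example, spans 82.0 to 224 FPKM in controls, 86.7 to 190 FPKM after 14 days of PLX3397 and 74.9 to 189 FPKM at 5 day recovery.

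In 7 of the 11 groups the members varied more between libraries than the median gene did, and in the other 4 they varied less. The coefficient of variation within a group, the SD as a percent of the mean FPKM, had a median of 12.7% over the members in control microglia at 0 hr, against 20.6% over all genes tested, and of 12.7% against 19.4% in WM repopulating cells at 0 hr. In control microglia at 6 hr it was 42.8% against 24.8%, and reached 104% for *Fosb*. At 24 hr control microglia had 32.3% against 23.9%. WM repopulating cells had 20.2% against 18.9% at 6 hr and 17.8% against 20.2% at 24 hr, the latter with *Egr1* at 3.52% and *Fosb* at 49%. These are descriptions, since the members of a library share its RNA. In SVZ tissue it was 34.7% against 14.4% in controls, 26.6% against 11.1% after PLX3397 and 33.1% against 17.7% at recovery. GLOBAL controls had 38% against 24.7% and GLOBAL repopulation 15.6% against 18.8%. Replicate 1 was the highest WM library at 0 hr for 8 of 9 members, replicate 4 the highest at 6 hr for 7 and replicate 1 the lowest at 24 hr for 7. In the SVZ controls replicate 5 was the highest for 7 of 10, and replicate 3 at recovery for 7 of 10. Of these libraries, the WM replicate 1 at 0 hr was also the lowest for *Fos*, the WM replicate 4 at 6 hr for *Egr2* and the SVZ replicate 3 at recovery for *Ier2*. Further libraries ranked both ways as well. The 6 hr control replicate 2 was the lowest for 7 of 9 and the highest for 2, control microglia replicate 1 at 0 hr was the lowest for 3 and the highest for 2, and the SVZ 14 day PLX3397 replicate 1 was the highest for 4 of 10 and the lowest for 1.

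The mean of the members' standardized deviations gave each library a score, to which single genes were compared by Pearson's r as a description across libraries that share depth and handling. Each member is itself part of the score, which raises its own r, so members and genes outside them are not on the same footing. Over the 24 WM and LPS libraries *Egr1* (r = 0.94) and *Jun* (0.93) followed the score most closely, and *Junb* (0.53) and *Ier2* (0.39) least. The genes outside the members with the most similar pattern were *Bhlhe41* (0.91), *Btbd6* (0.89), *Tsc22d4* (0.89), *Lyl1* (0.89) and *Rad1* (0.88). Over the 15 SVZ libraries they were *Nudt3* (0.90), *Rgs2* (0.90), *Lppr5* (0.89), *Eftud2* (0.89) and *Gm9899* (0.89), and *Junb* (0.94) was the closest member. Over the 7 GLOBAL libraries, where a high r is easily reached, *Sgk1*, itself an immediate early gene, came first.

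**Figure D5:**
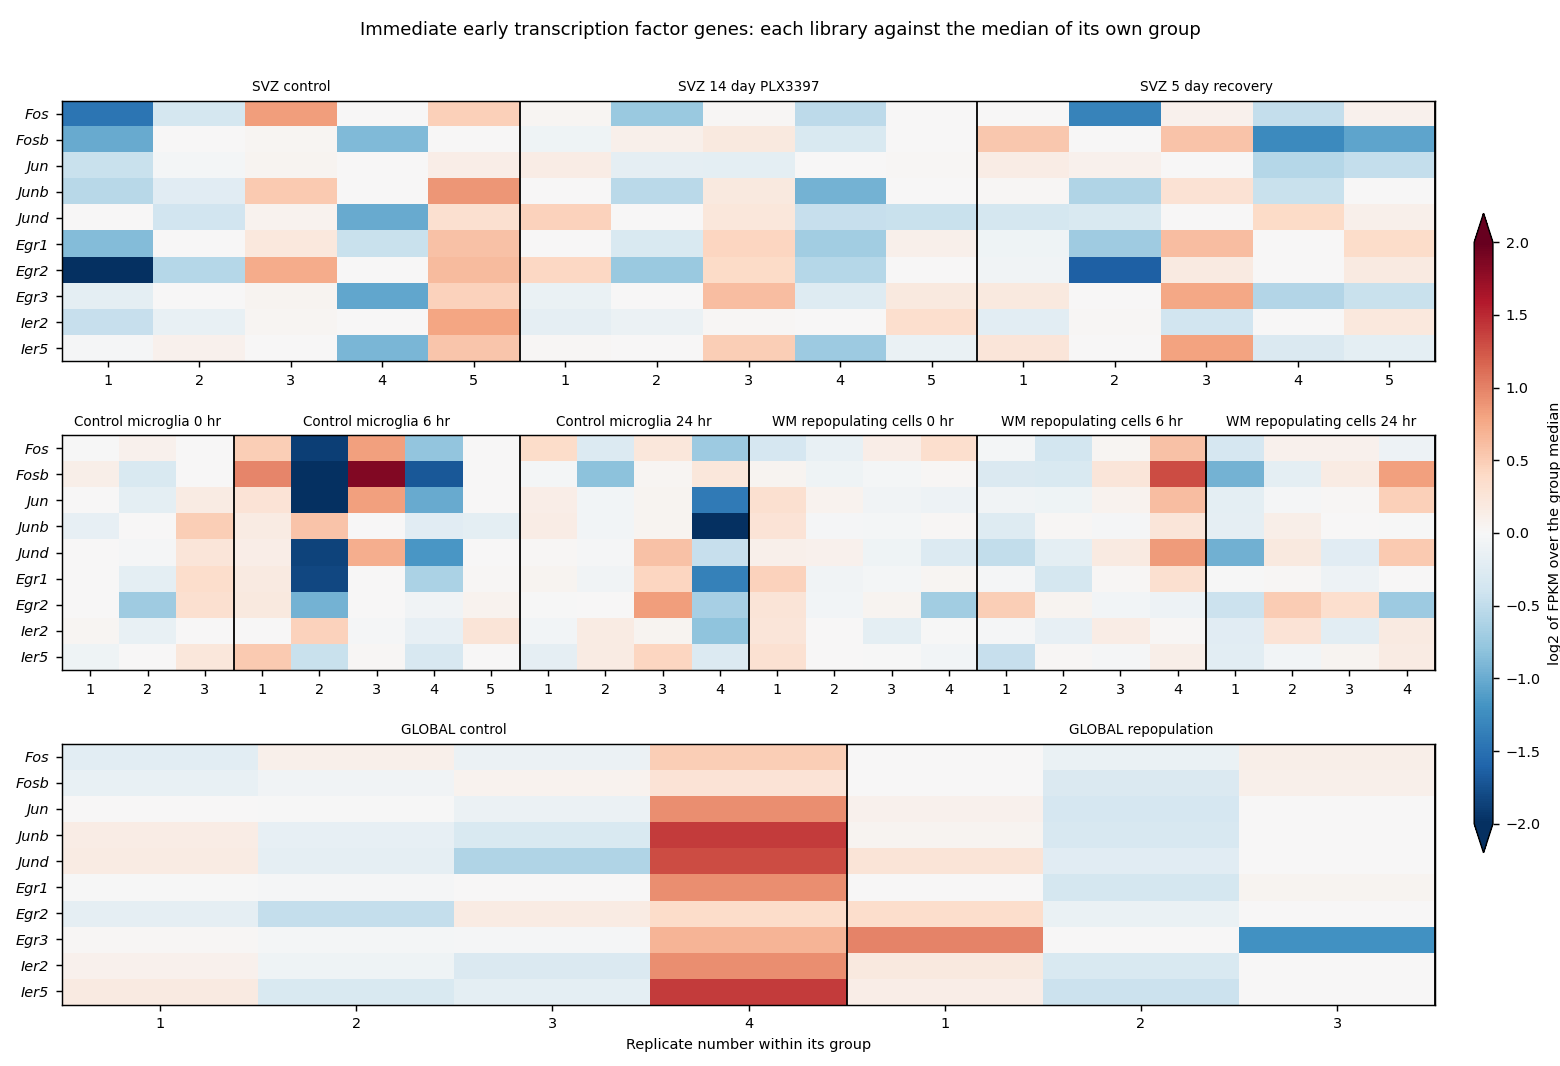
Each library (columns, by replicate number) against the median of its own group for each listed member (rows), as the log2 ratio of FPKM, red above and blue below the median, with the colour scale ending at 2 in either direction. GLOBAL control replicate 4 is red for all 10 members, the 6 hr control replicate 2 is blue for 7 of 9, and the 24 hr control replicate 4 is below the median of its group for 8 of 9.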

How the data were processed

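mRNA was measured by sequencing in SVZ tissue and in sorted CD11b+CD45int cells. The authors deposited FPKM values, 1 table per experiment (called RPKM in their methods). The authors' processing notes in the labels name STAR, featureCounts, edgeR, limma and the build mm10. The library protocol in the labels differs from that in the methods.
Groups were taken from the labels. FPKM was analysed as log2(FPKM + 1) with limma 3.58.1 in R 4.3.3, fitting a mean per group to all libraries of a table, with trended empirical Bayes variances, 2-sided tests and Benjamini-Hochberg adjustment over all genes that reached an FPKM of 1 in 3 or more libraries. Genes were called at an adjusted p under 0.05. A log2 fold change on this scale understates the change of low genes. The fit was tested on simulated data. Tables and figures were made in Python 3.11.15. No column of values was left unused (0).

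Read depths were recovered from FPKM steps, which could be found for 92.8, 99.6 and 100% of the low genes examined in the SVZ, WM and LPS and GLOBAL tables. In 7 SVZ libraries 99.7 to 99.8% of the numbers first recovered were even, so their depths were halved. Of the other lists (AP-1 partners, SRF and ternary complex factors, EGR relatives, other immediate early genes, heat shock chaperones, LPS response, and markers of microglia, monocytes, neutrophils, neurons, choroid plexus and other brain cells) at most 4 called genes with the largest changes per comparison were named, plus the 5 genes most like the members in each table and all 10 members. Some genes of these lists are not reported here and enter no count or sum. The members and lists were chosen with earlier results of these data known.
Alternatives were a pseudocount of 0.1, no filter, quantile normalization, no variance trend, a replicate block, a fit of only the groups compared and leaving out each replicate. Leaving out the 2 control libraries that stood apart, and a term for the 7 shallower SVZ libraries, were chosen after seeing the data. Identical libraries were looked for, and 0 pairs were found. *Egr1* is given without its position.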

Additional observations from a re-analysis of the deposited data

Results flagged for a closer look

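Dixon's test was applied to the highest and lowest library of each member in the groups of 4 or 5 libraries, 85 sets in all, of which 7 held a library far from the rest. Chance gives about 1 in 20. Of these 7, 4 were the GLOBAL control replicate 4, with 2390 FPKM for *Jun*, 2393 FPKM for *Junb*, 3321 FPKM for *Egr1* and 2.62 FPKM for *Egr3*, each the highest of 4 controls. *Egr3* rests there on few reads. *Junb* in the 24 hr control replicate 4 was the lowest of 4 at 85.5 FPKM, in a library that stood apart over all genes. *Ier5* in WM repopulating cells at 0 hr was highest in replicate 1 at 278 FPKM, and the 3 other libraries lay at 218 to 227 FPKM, still above the control microglia. *Egr2* in SVZ tissue at 5 day recovery was lowest in replicate 2 at 1.31 FPKM.

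The response of *Ier2* to LPS at 24 hr differed between WM repopulating cells and control microglia by 1.44 on the log2 scale in a test of the difference itself (SE 0.26, adjusted p = 0.0227, limma). *Ier2* was higher than at 0 hr in 4 of 4 WM libraries and lower than at 0 hr in 4 of 4 control libraries. The call of the difference was lost with quantile normalization (adjusted p = 0.0667), the replicate block (0.0568) and the groups concerned fitted alone (0.0548). It was also lost in 5 of 15 fits that left out 1 library (0.0501 to 0.0607). The fall in control microglia was called in 3 of 13 alternatives.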

How the results depend on the processing

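Of 121 log2 fold changes of members, 23 changed sign under at least 1 alternative, none of them with an unadjusted p under 0.05. Without the 2 outlying control libraries these were *Fosb* between the cells at 6 hr (0.67 to -0.07), *Egr2* between the cells at 24 hr (0.15 to -0.06) and at 6 hr in control microglia (-0.10 to 0.08), *Junb* for the 24 hr difference (0.53 to -0.16) and, for the 6 hr difference, *Fos*, *Fosb* (0.43 to -0.31), *Jun* (0.23 to -0.25) and *Jund* (0.15 to -0.20). Counts of members called did move. With the groups compared fitted alone, 2 members were called between the cells at 0 hr (1 in the fit of all groups), 2 at 6 hr in control microglia (4), 6 at 24 hr in WM repopulating cells (2) and 0 for the difference of the 24 hr responses (1). Quantile normalization and the replicate block also left 0 for that difference.
The labels do not say whether the numbers pair the libraries, and correlations cannot decide it. Deviations of same-numbered libraries correlated at -0.155 to 0.486 in the SVZ table (median 0.0539, other pairs -0.00713). In the WM and LPS table they correlated at -0.19 to 0.266 (median -0.00106, other pairs -0.00368). In the GLOBAL table they correlated at 0.0562 to 0.137 (median 0.102, other pairs -0.0411). Beyond the difference of the 24 hr responses, the block gave 4 in place of 6 members at 24 hr in control microglia and no other change in a count. Without the 2 outlying control libraries, an alternative chosen after seeing the data, 2 members were called between the cells at 0 hr (1 in the fit of all libraries), 5 between the cells at 24 hr (4), 5 at 6 hr in control microglia (4), 5 at 24 hr in WM repopulating cells (2) and 2 for the difference of the 24 hr responses (1), and no other count changed. A term for the shallower SVZ libraries, also chosen after seeing the data, left 0 members called.

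Leaving out each replicate gave 2 to 6 members at 24 hr in control microglia (2 without 0 hr replicate 3 or 24 hr replicate 4, and 3 without 0 hr replicate 1 or 2), 4 to 7 at 6 hr in WM repopulating cells (4 without 0 hr replicate 3, 6 hr replicate 2 or 6 hr replicate 3), 1 to 2 at 24 hr in WM repopulating cells (1 without replicate 1 of either time) and 0 to 1 for the difference of the 24 hr responses, which was 0 without control 0 hr replicate 1 or 3, WM 0 hr replicate 2 or WM 24 hr replicate 2 or 4. Counts of 0 in the SVZ and GLOBAL tables and between the cells at 6 hr stayed 0 in each alternative run.
*Egr1*, *Ier2* and *Ier5* between the cells at 24 hr were called in 14 of 14 alternatives, *Ier5* at 0 hr in 13 of 13, *Fos* at 6 hr in 14 of 14 in both kinds of cell, and *Junb* between the cells at 24 hr in 8 of 14 and at 24 hr in control microglia in 3 of 13. Depth limits *Egr3* in the GLOBAL table (2 to 18 reads) and *Fosb* in the SVZ table (17 to 91 reads).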
